A study of Sus scrofa with 6 samples.

Results

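The metalloproteinase and inhibitor genes of the pig (Sus scrofa) were followed in fat, liver and muscle. A gene was a member when the symbol paired with its Ensembl ID was MMP, ADAM, ADAMTS, ADAMTSL or TIMP followed by a number. This gave 54 members of 25322 gene IDs: 16 MMP, 17 ADAM, 16 ADAMTS, 4 ADAMTSL and 1 TIMP gene. MMP23B and ADAM3A carry a letter after the number and were not members. The name table held 65 such symbols. TIMP3, TIMP4, MMP3, MMP24, MMP28, ADAM2, ADAM20, ADAMTS3, ADAMTS17, ADAMTS18 and ADAMTSL1, whose IDs are not those of the count files, were not analysed here, nor was TIMP2.

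RNA of Berkshire pigs and of Korean native pigs, a European and an Asian breed, was sequenced in 6 libraries, 1 for each breed and tissue. No treatment, age or sex was given in the sources used here. The series title speaks of 3 pigs of each breed, but nothing ties a library to an animal or to a pool, so each p-value below measures only the spread among these libraries. Where a pair of values is given for a tissue, the Berkshire library comes first and the Korean native library second. The libraries held between 5897407 and 7912093 counts on genes. Levels are TMM-scaled CPM, that is counts scaled to a common library total (CPM) after edgeR's TMM scaling. A count of 0 allowed a level of up to 0.294 to 0.692 CPM, the value of 3 counts. The defining genes of the labelled tissues were found in them: ALB (albumin) stood at 176485 and 212897 CPM in liver and at no more than 52.6 CPM elsewhere, ACTA1 (skeletal actin) at 49067 and 71091 CPM in muscle and at no more than 22.0 CPM elsewhere, and PLIN1 (a lipid droplet coat protein) at 1096 and 621 CPM in fat, 95.7 and 18.9 CPM in muscle and at most 3.20 CPM in liver.

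As background, these proteins are zinc proteases of the metzincin clan, or relatives and inhibitors of them. MMPs cut collagens, other matrix proteins and many secreted factors. Most are secreted as inactive proenzymes, and a subgroup sits in the cell membrane. ADAMs are membrane proteins, several of which release the outer part of growth factors, cytokines and receptors from the cell surface. ADAMTS proteases are secreted and cut proteoglycans, procollagens and von Willebrand factor, while the related ADAMTSL proteins lack the protease domain. TIMPs bind and block these enzymes. In adipose tissue and muscle the family is known for matrix turnover around fibres and fat cells.

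Of the 54 members, 40 had enough counts to be tested. The other 14 were MMP1, MMP8, MMP9, MMP12, MMP13, MMP17, MMP20, ADAM7, ADAM11, ADAM18, ADAM21, ADAM30, ADAM32 and ADAMTS19. Of these, MMP1, ADAM18, ADAM21 and ADAM30 had 0 counts in all 6 libraries. The highest count among the rest was 21, for MMP9 (gelatinase B, abundant in neutrophils) in Korean native fat, or 2.07 CPM, and its other libraries lay between 0.294 and 1.20 CPM. MMP8, the neutrophil collagenase, reached 11 counts (2.20 CPM) in Berkshire liver. The 4 neutrophil markers with an ID (of 7 listed) were also sparse, summing to between 0.923 CPM in Korean native muscle and 10.9 CPM in Korean native liver.

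Tissues were compared by edgeR's quasi-likelihood test with tissue and breed as terms, so that the libraries of both breeds serve as the replicates of a tissue (n = 2). For 34 of 40 tested members the highest level lay in the same tissue in both breeds, against 69.9% of all 13810 tested genes. Fat was highest in both breeds for 20 members (50.0%, against 19.2% of all genes). Liver was for 8 (20.0% against 28.2%) and muscle for 6 (15.0% against 22.4%). The 6 members whose top tissue differed were ADAMTS6, ADAMTS9, ADAMTSL3, MMP2, MMP11 and MMP27, each highest in muscle in Berkshire and in fat in Korean native pigs. Since a member high in only 1 tissue could pass the filter through that tissue alone, these counts describe the tested members and not the whole family.

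**Figure D1:**
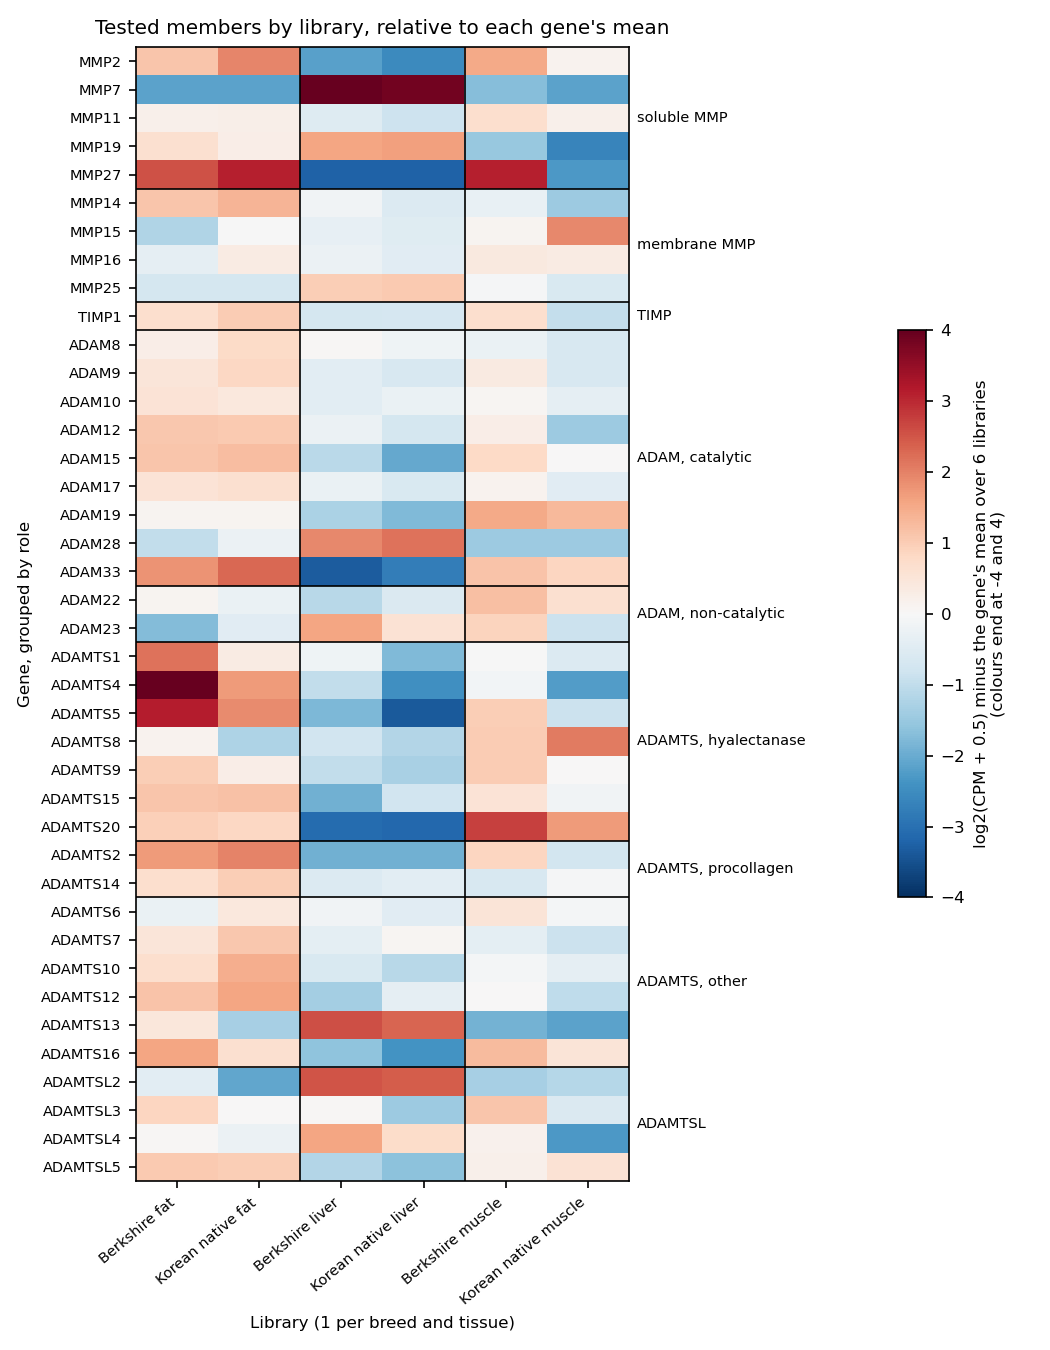
Level of the 40 tested members in the 6 libraries. Rows are genes grouped by role, columns are libraries, and colour is log2(CPM + 0.5) minus the gene's mean over the 6 libraries, with the colour scale ending at -4 and 4; 20 members were highest in fat in both breeds, 8 in liver and 6 in muscle.

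Liver stood apart from fat with 25 of 40 tested members changed, 20 lower and 5 higher in liver (edgeR adjusted p under 0.05). Over all genes 28.7% changed, 13.5% lower and 15.2% higher. Between liver and muscle 21 members changed, 15 lower and 6 higher in liver, where 35.9% of all genes changed, 17.4% lower and 18.6% higher. Between muscle and fat 7 members changed, 5 lower and 2 higher in muscle. At 17.5% of the tested members this is near the 16.4% of all genes (6.43% lower and 9.95% higher). The median log2 difference of the members was -1.42 for liver against fat, -0.79 for muscle against fat and -0.72 for liver against muscle, against 0.06, -0.05 and -0.01 over all tested genes. With total counts in place of TMM factors the median gene moved to -0.94, -0.98 and -0.09. Relative to that shift all 25, 7 and 21 called members kept their direction, but the called members of muscle against fat then split into 0 higher and 24 lower, where 6020 of 13810 genes were called, 12.7% of them higher. The muscle against fat count was also 15 without a filter on low counts and 11 with DESeq2, and it changed when some single libraries were left out. The shares of all genes called in those fits are not given here, so these counts show only that the number of calls was unsteady.

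**Figure D2:**
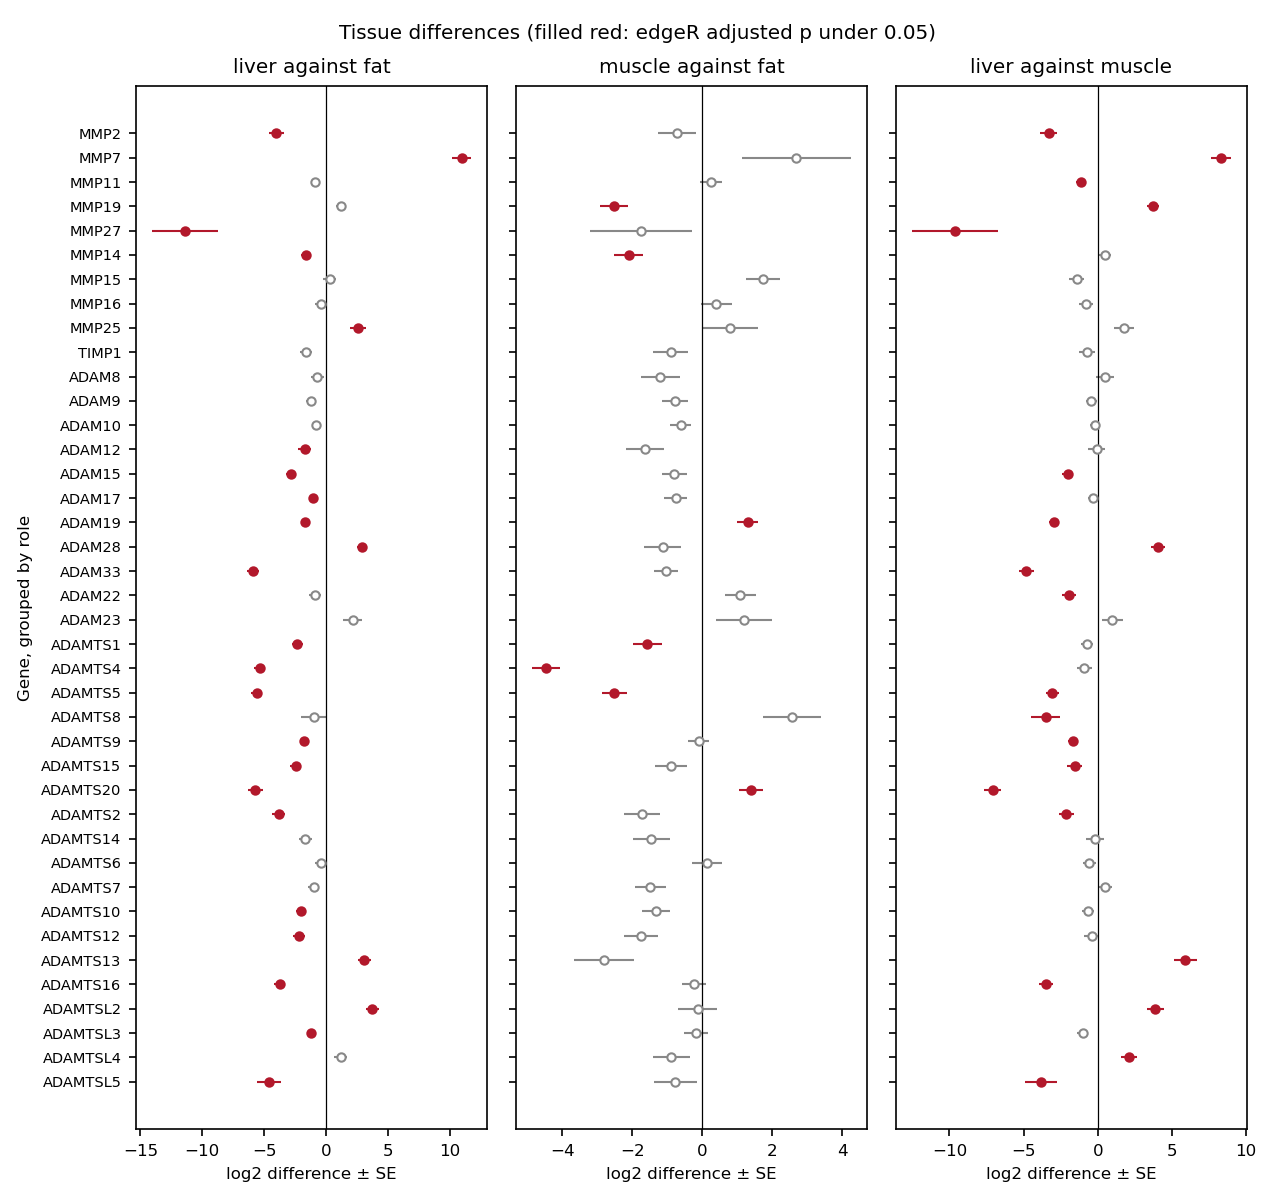
Log2 difference between tissues (x axis, ± SE) for the 40 tested members (y axis, grouped by role) in 3 comparisons with separate x scales. Filled red points passed the edgeR test, 25 for liver against fat, 7 for muscle against fat and 21 for liver against muscle; the values of MMP27 and MMP7 rest on tissues with 0 counts and show direction only.

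Among the secreted MMPs, the gelatinase MMP2 was low in liver, MMP19 was high in liver and low in muscle, MMP7 was seen almost only in liver, and MMP27 was absent from the liver counts. MMP2 (ENSSSCG00000002829), which degrades denatured and basement membrane collagen, stood at 412 and 733 CPM in fat, 41.6 and 32.0 CPM in liver, and 537 and 209 CPM in muscle. Both liver libraries lay below all others, while the fat and muscle values overlapped. The log2 difference was -4.02 ± 0.59 (SE) for liver against fat (16.2-fold lower, edgeR adjusted p = 0.0029) and -3.29 ± 0.57 for liver against muscle (9.81-fold lower, edgeR adjusted p = 0.0045). MMP19 (ENSSSCG00000000368), a widely expressed secreted protease of basement membrane proteins, stood at 87.2 and 67.1 CPM in fat, 165 and 176 CPM in liver, and 19.2 and 8.53 CPM in muscle. The 3 tissues did not overlap. It was lower in muscle than in fat by -2.52 ± 0.39 on the log2 scale (edgeR adjusted p = 0.0078) and higher in liver than in muscle by 3.70 ± 0.41 (edgeR adjusted p = 6.8e-04), while liver against fat gave 1.18 ± 0.37 and missed the threshold (edgeR adjusted p = 0.0505).

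MMP7 (matrilysin, a small MMP of epithelia, ENSSSCG00000014982) had 0 counts in both fat libraries, 41.2 and 31.7 CPM in liver, and 0.183 CPM (1 count) and 0 counts in muscle. Liver was at least 124-fold higher than fat, taking 3 counts per fat library as the limit (edgeR adjusted p = 2.9e-04 for liver against fat and 3.6e-04 for liver against muscle). MMP27 (ENSSSCG00000014984), a member of the stromelysin-like group, stood at 27.3 and 39.8 CPM in fat, at 0 counts in both liver libraries, at 40.5 CPM in Berkshire muscle and at 0.461 CPM (2 counts) in Korean native muscle. Fat was at least 61.2-fold and muscle on average at least 37.3-fold higher than liver. The 2 muscle libraries thus lay on both sides of the fat values. The edgeR adjusted p was 0.024 for liver against fat and 0.046 for liver against muscle, and the second call ended without Berkshire liver (log2 -8.60) or without Berkshire muscle (log2 -4.49).

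Both genes belong to a run of 8 neighbouring MMP genes in the RefSeq annotation of Sscrofa11.1, in the order MMP7, MMP20, MMP27, MMP8, MMP1, MMP3, MMP12 and MMP13. That build is not the one the counts were made on and was used only for which genes are neighbours. MMP20 (enamelysin), the gene between MMP7 and MMP27, had 1 count in all 6 libraries, in Berkshire fat. MMP8 and MMP1 on the other side of MMP27 had at most 11 and 0 counts, MMP12 at most 10 and MMP13 at most 2 counts in a library. MMP27 was thus the only measured gene of the run with over 2 CPM in fat or muscle, and MMP7 and MMP8 were those with over 2 CPM in liver. The other neighbouring members in that annotation were ADAMTS8 and ADAMTS15. MMP11 (stromelysin 3, a gene of stromal cells) varied less, with 18.2 and 18.8 CPM in fat, 11.0 and 8.78 CPM in liver, and 25.8 and 18.5 CPM in muscle, and was lower in liver than in muscle by -1.16 ± 0.32 (edgeR adjusted p = 0.030). That call ended without Berkshire liver (-1.22), Berkshire muscle (-0.96) or Korean native liver (-1.11).

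**Figure D3:**
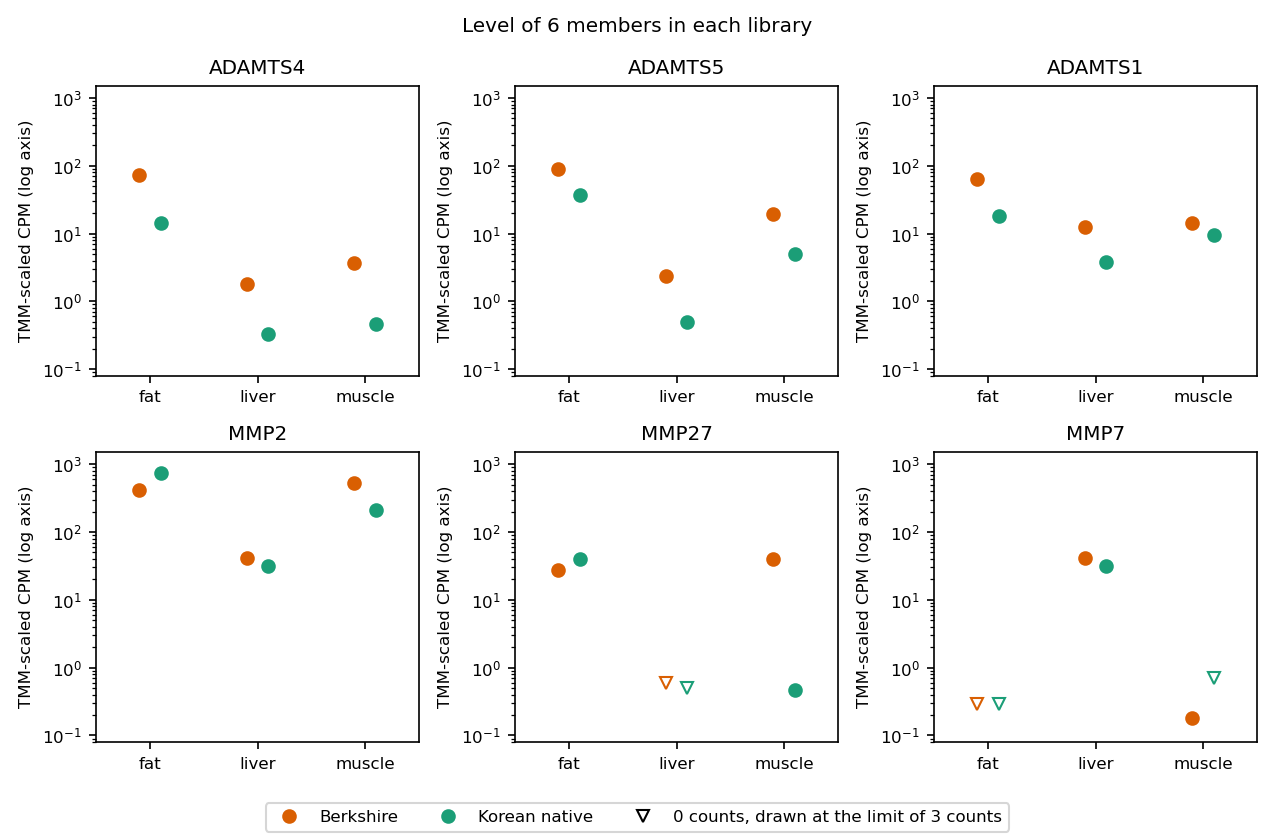
Level of 6 members in each library, with tissue on the x axis and TMM-scaled CPM on a log y axis; orange is Berkshire, green is Korean native, and open triangles mark 0 counts drawn at the limit of 3 counts. ADAMTS4, ADAMTS5 and ADAMTS1 were highest in fat and lower in the Korean native library of each tissue, and MMP27 stood at 40.5 and 0.461 CPM in muscle.

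Of 4 tested membrane-anchored MMPs, MMP14 was highest in fat, MMP25 rose in liver against fat, and MMP15 and MMP16 passed no tissue comparison. MMP14 (MT1-MMP, a collagenase of the cell surface that activates proMMP2, ENSSSCG00000002039) stood at 200 and 239 CPM in fat, 83.6 and 63.0 CPM in liver, and 76.3 and 33.4 CPM in muscle. Both fat libraries lay above all others, and liver and muscle overlapped. It was lower than in fat by -1.63 ± 0.41 in liver (3.10-fold, edgeR adjusted p = 0.023) and by -2.10 ± 0.42 in muscle (4.29-fold, edgeR adjusted p = 0.018). The liver call ended without Berkshire liver (-1.61), Korean native fat (-1.06) or Korean native liver (-1.65), and the muscle call without Korean native fat (-1.57) or Korean native muscle (-1.56). MMP25, known from leukocytes, had 0.392 and 0.394 CPM in fat, 2.40 and 2.49 CPM in liver, and 0.915 and 0.461 CPM in muscle (liver against fat log2 2.59 ± 0.65, edgeR adjusted p = 0.024), a call that ended with total counts (1.60), with DESeq2 (2.60) and without any 1 of the 4 fat and liver libraries (2.35 to 2.83). MMP15 stood at 7.93 and 19.0 CPM in fat, 15.2 and 13.4 CPM in liver, and 20.7 and 73.8 CPM in muscle, and the breeds were further apart in muscle than the tissues were in Berkshire.

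TIMP1 (ENSSSCG00000012277), the inhibitor measured here, stood at 20.4 and 25.7 CPM in fat, 7.60 and 7.62 CPM in liver, and 20.1 and 6.23 CPM in muscle. Liver lay below fat in both breeds, but the value of -1.62 ± 0.51 missed the threshold (edgeR adjusted p = 0.053). Its muscle libraries spanned nearly the whole range from liver to fat. No balance of proteases and inhibitors was computed, because TIMP1 is 1 of 4 TIMPs and counts of different genes depend on their lengths, which were not used here.

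The catalytic ADAMs were mostly lower in liver than in fat: of 9 tested, 5 fell, 1 rose and 3 did not pass. The called share was 66.7%, against 28.7% of all genes (13.5% lower and 15.2% higher). In liver against muscle 3 fell and 1 rose (44.4%, against 35.9% of all genes). In muscle against fat 1 rose and 0 fell (11.1%, under the 16.4% of all genes). ADAM33 (an asthma-associated ADAM of mesenchymal cells, ENSSSCG00000007145) had 31.2 and 44.1 CPM in fat, 0.400 and 0.829 CPM in liver, and 19.8 and 16.1 CPM in muscle. The tissues did not overlap, and liver differed from fat by -5.86 ± 0.49 (58.3-fold lower, edgeR adjusted p = 2.7e-04) and from muscle by -4.83 ± 0.49 (28.4-fold lower, edgeR adjusted p = 4.6e-04). ADAM15, found in endothelial cells among others, had 42.3 and 45.7 CPM in fat, 8.80 and 4.31 CPM in liver, and 33.7 and 19.6 CPM in muscle (liver against fat -2.84 ± 0.40, edgeR adjusted p = 0.0024; liver against muscle -2.04 ± 0.39, edgeR adjusted p = 0.0072). ADAM19, which takes part in cutting neuregulins, was the only ADAM that was highest in muscle and passed all 3 comparisons, with 36.7 and 36.8 CPM in fat, 14.0 and 9.61 CPM in liver, and 97.4 and 84.7 CPM in muscle. Its libraries of the 3 tissues did not overlap, and the log2 differences were -1.66 ± 0.31 for liver against fat (edgeR adjusted p = 0.0080), 1.30 ± 0.30 for muscle against fat (edgeR adjusted p = 0.030) and -2.96 ± 0.32 for liver against muscle (edgeR adjusted p = 6.2e-04). The liver against fat call ended without Korean native fat (-1.48) or Korean native liver (-1.44). The muscle against fat call ended with total counts (0.36) and without Berkshire fat (1.13), Berkshire muscle (1.21), Korean native fat (1.49) or Korean native muscle (1.29).

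The broadly acting sheddases varied less. ADAM17, which releases TNF and EGF receptor ligands, had 26.7 and 28.3 CPM in fat, 15.0 and 11.8 CPM in liver, and 20.0 and 13.1 CPM in muscle, and ADAM10, which cuts Notch receptors, had 84.8 and 77.9 CPM in fat, 43.8 and 48.4 CPM in liver, and 61.7 and 45.2 CPM in muscle. ADAM17 fell in liver against fat by 1.06 ± 0.32 on the log2 scale (2.08-fold, edgeR adjusted p = 0.048), whereas ADAM10, at -0.81 ± 0.30, and ADAM9, at -1.22 ± 0.38, did not pass (edgeR adjusted p = 0.086 and 0.052). ADAM12, known from regenerating muscle and adipocyte precursors, had 10.2 and 10.1 CPM in fat, 3.80 and 2.65 CPM in liver, and 5.67 and 1.38 CPM in muscle. It fell by 1.70 ± 0.53 in liver against fat (edgeR adjusted p = 0.0497). The call of ADAM17 ended without Berkshire fat (-1.33), Berkshire liver (-1.11), Korean native fat (-0.77) or Korean native liver (-1.003), and without the breed term (-1.04). That of ADAM12 ended without Berkshire liver (-1.58), Korean native fat (-1.08) or Korean native liver (-1.83), with limma-voom (-1.61) and without the breed term (-1.65). ADAM28, known from lymphocytes, went the other way, with 1.47 and 2.76 CPM in fat, 14.2 and 17.1 CPM in liver, and 0.915 and 0.923 CPM in muscle. Both liver libraries lay above the rest (liver against fat 2.91 ± 0.41, edgeR adjusted p = 0.0024; liver against muscle 4.05 ± 0.49, edgeR adjusted p = 9.4e-04). Beside it, the 5 lymphocyte markers with an ID (of 7 listed) summed to 28.6 and 32.0 CPM in liver, 12.1 and 5.52 CPM in fat, and 5.49 and 3.69 CPM in muscle; their part in the ADAM28 value was not tested.

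Of the ADAMs that lack an active catalytic site in human, ADAM22 and ADAM23 were tested. ADAM22, a receptor of LGI proteins known from nerve, had 4.41 and 3.25 CPM in fat. It was lower in liver (1.60 and 2.49 CPM) than in muscle (9.88 and 6.46 CPM) by -1.95 ± 0.49 (edgeR adjusted p = 0.021). That call ended without Berkshire liver (-1.42) or Berkshire muscle (-1.65). ADAM23 had 17.4 and 8.45 CPM in liver, 10.6 and 2.77 CPM in muscle and 1.27 and 3.85 CPM in fat, and its breeds overlapped between tissues.

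The ADAMTS proteases that cut large proteoglycans such as versican and aggrecan (hyalectanases) were lower in liver than in fat for most members. All 7 were tested. In liver against fat 6 fell, in liver against muscle 5 fell, and in muscle against fat 3 fell and 1 rose. The called shares were 85.7%, 71.4% and 57.1%, against 28.7%, 35.9% and 16.4% of all genes. Lower were 13.5%, 17.4% and 6.43% of all genes, and 9.95% were higher in muscle against fat. ADAMTS4 (aggrecanase 1, ENSSSCG00000006359) had 74.0 and 14.2 CPM in fat, 1.80 and 0.331 CPM in liver, and 3.66 and 0.461 CPM in muscle. Both fat libraries lay above the others, and liver and muscle overlapped. The log2 difference was -5.37 ± 0.42 for liver against fat (41.4-fold lower, edgeR adjusted p = 2.2e-04) and -4.47 ± 0.40 for muscle against fat (22.2-fold lower, edgeR adjusted p = 6.8e-04). ADAMTS5 (aggrecanase 2, ENSSSCG00000012027) had 89.3 and 37.6 CPM in fat, 2.40 and 0.497 CPM in liver, and 19.6 and 5.07 CPM in muscle. No tissues overlapped, and all 3 comparisons passed, with -5.59 ± 0.44 for liver against fat, -2.52 ± 0.35 for muscle against fat and -3.08 ± 0.44 for liver against muscle (edgeR adjusted p = 2.2e-04, 0.0050 and 0.0019). The muscle against fat call of ADAMTS5 ended without the breed term (-2.35).

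ADAMTS1, an early responder to inflammatory stimuli that also cuts versican, had 64.8 and 17.8 CPM in fat, 12.4 and 3.81 CPM in liver, and 14.1 and 9.46 CPM in muscle. It fell by 2.30 ± 0.41 in liver and by 1.57 ± 0.40 in muscle against fat on the log2 scale (edgeR adjusted p = 0.0065 and 0.042), and the muscle call ended without the breed term (-1.81) and without Berkshire fat (-1.18), Berkshire muscle (-1.06) or Korean native fat (-1.93). ADAMTS20 was the hyalectanase that was highest in muscle. It had 10.8 and 9.86 CPM in fat, 0.200 and 0.166 CPM (1 count each) in liver, and 38.4 and 18.7 CPM in muscle, with no overlap of tissues. Muscle rose against fat by 1.39 ± 0.36 (2.62-fold, edgeR adjusted p = 0.041), and liver was lower than fat by -5.71 ± 0.60 and than muscle by -7.10 ± 0.58 (edgeR adjusted p = 7.4e-04 and 1.9e-04). The muscle against fat call ended with total counts (0.46) and without Berkshire fat (0.96), Berkshire muscle (0.81) or Korean native fat (1.81).

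ADAMTS9 and ADAMTS15 were lower in liver than in both other tissues. ADAMTS9 had 77.3 and 47.0 CPM in fat, 19.4 and 15.6 CPM in liver, and 79.4 and 39.0 CPM in muscle (-1.78 ± 0.32 for liver against fat and -1.68 ± 0.32 for liver against muscle, edgeR adjusted p = 0.0067 and 0.0070). Fat and muscle overlapped, and both calls ended without Berkshire liver (-1.52 and -1.41). ADAMTS15 had 41.1 and 43.4 CPM in fat, 4.60 and 10.8 CPM in liver, and 27.8 and 16.8 CPM in muscle (-2.46 ± 0.48 and -1.56 ± 0.49, edgeR adjusted p = 0.0092 and 0.043), and its liver against muscle call ended without Berkshire liver (-0.88) or Berkshire muscle (-0.91). Its neighbour in the annotation, ADAMTS8, had 1.57 and 0.296 CPM in fat, 0.600 and 0.331 CPM in liver, and 3.29 and 7.38 CPM in muscle, and was lower in liver than in muscle by -3.52 ± 0.97 (edgeR adjusted p = 0.028), a call that ended without Korean native liver (-3.21) or Korean native muscle (-2.06). The neighbours thus were highest in different tissues, ADAMTS15 in fat and ADAMTS8 in muscle, in both breeds.

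Of the procollagen N-proteinases, which trim collagen precursors, ADAMTS2 (ENSSSCG00000024043) had 241 and 296 CPM in fat, 19.0 and 19.2 CPM in liver, and 135 and 43.8 CPM in muscle. The tissues did not overlap, and liver was lower than fat by -3.83 ± 0.54 (14.2-fold, edgeR adjusted p = 0.0025) and than muscle by -2.12 ± 0.52 (4.33-fold, edgeR adjusted p = 0.018). The latter call ended without Berkshire liver (-1.76) or Berkshire muscle (-1.11). ADAMTS14, with levels from 0.915 to 3.85 CPM, passed no comparison.

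Of the other 6 tested ADAMTS genes, 3 fell and 1 rose in liver against fat. This was 66.7% of them, against 28.7% of all genes (13.5% lower and 15.2% higher). In liver against muscle 1 fell and 1 rose, which at 33.3% is near the 35.9% of all genes. In muscle against fat 0 passed, against 16.4% of all genes. ADAMTS13, which cuts von Willebrand factor and is known to be made by hepatic stellate cells, had 18.8 and 15.7 CPM in liver, 3.92 and 0.789 CPM in fat, and 0.366 and 0.231 CPM in muscle. The tissues did not overlap, and liver was higher than fat by 3.11 ± 0.55 (8.63-fold, edgeR adjusted p = 0.0061) and than muscle by 5.91 ± 0.77 (edgeR adjusted p = 0.0013). The 4 stellate cell markers with an ID (of 5 listed) summed to 197 and 143 CPM in liver, 34.0 and 40.8 CPM in fat, and 5888 and 6319 CPM in muscle, where DES (desmin, also a muscle fibre protein) held 5878 and 6309 CPM. LRAT, the defining enzyme of these cells, stood at 12 and 17.6 CPM in liver and at 0 counts in the other 4 libraries. Their part in the ADAMTS13 value was not tested. ADAMTS16 had 15.1 and 7.59 CPM in fat, 1.20 and 0.497 CPM in liver, and 11.9 and 6.92 CPM in muscle, and was lower in liver than in fat and in muscle by -3.73 ± 0.45 and -3.48 ± 0.46 (edgeR adjusted p = 0.0013 and 0.0014). ADAMTS12, which cuts COMP, had 82.7 and 112 CPM in fat against 14.4 and 29.2 CPM in liver and 37.5 and 18.5 CPM in muscle (liver against fat -2.16 ± 0.49, edgeR adjusted p = 0.017), and ADAMTS10, which binds fibrillin, had 38.1 and 67.0 CPM against 15.4 and 10.9 CPM in liver and 22.9 and 18.7 CPM in muscle (liver against fat -1.99 ± 0.41, edgeR adjusted p = 0.011). The call of ADAMTS12 ended without Berkshire liver (-1.63) or Korean native fat (-1.92), and that of ADAMTS10 without Korean native fat (-1.36) or Korean native liver (-1.59). ADAMTS6 and ADAMTS7 passed no comparison. ADAMTS7, a COMP-cutting protease, had 7.74 and 12.1 CPM in fat, 4.00 and 5.80 CPM in liver, and 4.03 and 2.77 CPM in muscle.

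The ADAMTSL genes went in different directions. ADAMTSL2 (a fibrillin-binding protein mutated in geleophysic dysplasia, ENSSSCG00000026425) had 58.6 and 55.2 CPM in liver, 7.25 and 1.97 CPM in fat, and 3.66 and 4.15 CPM in muscle. Both liver libraries lay above the rest, by 3.75 ± 0.53 against fat and 3.88 ± 0.55 against muscle (13.5-fold and 14.7-fold higher, edgeR adjusted p = 0.0025 and 0.0019). ADAMTSL4, also a fibrillin-associated protein, had 205 and 113 CPM in liver, 70.7 and 57.7 CPM in fat, and 76.1 and 13.4 CPM in muscle, and passed in liver against muscle (2.09 ± 0.54, edgeR adjusted p = 0.022), a call that ended without the breed term (1.82) and without Korean native muscle (1.29). ADAMTSL3 had 24.3 and 13.3 CPM in fat, 13.6 and 4.47 CPM in liver, and 29.1 and 8.53 CPM in muscle. Its breeds were as far apart as its tissues, and it fell by 1.20 ± 0.36 in liver against fat (edgeR adjusted p = 0.046). Its call ended without Berkshire liver (-1.37), Korean native fat (-0.80) or Korean native liver (-1.06), with limma-voom (-1.14) and without the breed term (-1.07). ADAMTSL5 had 2.74 and 2.56 CPM in fat, 1.28 and 1.85 CPM in muscle, and 0.200 CPM (1 count) and 0 counts in liver; liver was below both (edgeR adjusted p = 0.013 against fat and 0.031 against muscle). Its liver against fat call ended without Berkshire fat (log2 -4.47) or Korean native liver (-3.55), and its liver against muscle call without Berkshire muscle (-4.22), Korean native liver (-2.78) or Korean native muscle (-3.45).

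The sums of connective tissue cell markers were lowest in liver and overlapped between fat and muscle. In muscle against fat 0 of 5 tested fibroblast markers passed. The 8 members highest in liver in both breeds went the other way from these sums. The 5 fibroblast markers with an ID (of 7 listed), PDGFRA, DCN, LUM, COL3A1 and PI16, summed to 11071 and 16026 CPM in fat, 17475 and 4133 CPM in muscle, and 921 and 785 CPM in liver, and none was at 0 in any library. The smooth muscle and pericyte markers (5 of 6 with an ID) summed to 619 and 517 CPM in fat, 835 and 370 CPM in muscle, and 245 and 199 CPM in liver. In RNA of whole tissue, fewer cells of a type and less RNA per cell cannot be told apart. The part of these cells in the members' values was not tested.

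The partners, activators, inhibitors and substrates of the family were read from lists. Of 18 tested activators and other inhibitors (26 listed), 12 (66.7%) changed in liver against fat, 5 higher and 7 lower, against 28.7% of all genes. A2M, the broad protease trap of plasma, stood at 7117 and 5703 CPM in liver against 23.9 and 22.3 CPM in fat, and PLG (plasminogen, whose active form opens proMMPs) at 5598 and 7045 CPM against 0.881 and 0.887 CPM. FURIN, the convertase that activates ADAMs and membrane MMPs, was also higher in liver (253 and 146 against 52.1 and 43.4 CPM, edgeR adjusted p = 0.0050). The procollagen enhancers PCOLCE and PCOLCE2 and the plasminogen activators PLAU and PLAT were lower in liver than in fat, PCOLCE with 34.6 and 23.9 against 208 and 362 CPM. RECK, a membrane-anchored MMP inhibitor, passed no comparison, with 31.4 and 16.9 CPM in fat, 31.2 and 26.7 CPM in liver, and 28.6 and 13.4 CPM in muscle. In muscle against fat 2 members of this list fell, A2M and CTSL (a lysosomal cysteine protease), and 0 rose, which at 11.1% is under the 16.4% of all genes.

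Of 17 tested ADAMTS substrates (21 listed), 10 fell and 3 rose in liver against fat, 3 fell and 2 rose in muscle against fat, and 8 fell and 2 rose in liver against muscle. These are 76.5%, 29.4% and 58.8% of them, against 28.7%, 16.4% and 35.9% of all genes. FN1 (fibronectin) was higher in liver than in fat, and DCN (decorin), FBN1 (fibrillin 1) and THBS1 (thrombospondin 1) were lower. VCAN (versican) stood at 42.4 and 224 CPM in fat, 7.80 and 7.13 CPM in liver, and 103 and 61.6 CPM in muscle. Its higher fat library was the Korean native one, whereas ADAMTS4, ADAMTS5 and ADAMTS1 were higher in the Berkshire one. The list as a whole was mixed in fat. Of 14 substrates with at least 5 CPM in either fat library, 3 were at least 2-fold higher and 2 lower in the Korean native one. THBS1, at 1568 and 305 CPM, was among the lower. Over all genes 4.68% were higher and 3.71% lower. ACAN (aggrecan) did not exceed 4.21 CPM in any library. Of 24 tested ADAM10 and ADAM17 substrates (38 listed), 10 fell and 3 rose in liver against fat, or 54.2%, against 28.7% of all genes. CDH1 and CDH2, cell adhesion cadherins, were 2 of those that rose, CDH1 with 169 and 241 CPM in liver against 2.64 and 1.08 CPM in fat, and NOTCH3 was among those that fell. In muscle against fat 6 of these substrates fell and 2 rose, or 33.3%, against 16.4% of all genes. The 2 that rose were EGF and HBEGF, ligands of the EGF receptor, EGF with 39.4 and 189 against 0.588 and 0.986 CPM. Of the 7 tested partners of ADAM10 and ADAM17, RHBDF1 (iRhom1) fell in liver against fat and TSPAN17 rose in muscle against fat, and 0 others passed in those 2 comparisons. That is 14.3% of the partners in each, under the 28.7% and 16.4% of all genes. BMP1, a procollagen C-proteinase of another metzincin group, was lower in liver (43.4 and 47.7 CPM) and in muscle (47.2 and 22.1 CPM) than in fat (130 and 139 CPM), with edgeR adjusted p of 0.023 and 0.018.

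The breeds were compared next. Over all 3 tissues 0 of 40 members passed (edgeR adjusted p under 0.05), where 0.109% of all genes did (0.0290% higher and 0.0797% lower in Korean native pigs). At an unadjusted edgeR p under 0.05 there were 8 of 40 members, 7 of them lower and 1 higher in the Korean native libraries. Among all genes there were 1103 of 13810 (7.99%), 591 lower and 512 higher. DESeq2 called 2 members, limma-voom 0. The shares of all genes called by these tools are not given here, so these counts show nothing particular to the members. The median log2 difference was -0.30 over the members and 0.02 over all genes. A breed is represented by 1 library of each tissue, so these values say how steady a difference was across tissues and nothing of the breeds as populations. ADAMTS4 had been named with earlier results of these data in view.

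ADAMTS4 had the smallest p of the members. Its Berkshire and Korean native counts were 756 and 144 (fat), 9 and 2 (liver) and 20 and 2 (muscle), so that the Korean native library was lower in each tissue. The breed coefficient was -2.48 ± 0.34 (edgeR adjusted p = 0.092), with values from -2.68 to -2.37 over its alternatives. It passed with DESeq2 (adjusted p = 0.0011), without a filter on low counts (edgeR adjusted p = 0.012) and without Berkshire liver (-2.50, edgeR adjusted p = 0.037) or Korean native liver (-2.50, edgeR adjusted p = 0.031), and over all alternatives the adjusted p ranged from 0.0011 to 1. ADAMTS5 gave -1.65 ± 0.31 (edgeR adjusted p = 0.22, and 0.028 with DESeq2), ADAMTSL3 -1.38 ± 0.30 (edgeR adjusted p = 0.32), ADAMTS1 -1.40 ± 0.34 (edgeR adjusted p = 0.38) and ADAMTS16 -0.94 ± 0.32 (edgeR adjusted p = 0.53). Each of these 5 genes was lower in the Korean native library of fat, of liver and of muscle. They were picked by the smallest p of that coefficient, so their agreement across tissues follows in part from the choice. In liver the value of ADAMTS16 rests on 6 and 3 counts. On the other side MMP15 had the smallest p, with 1.01 ± 0.41 (edgeR adjusted p = 0.61), and ADAM28, ADAMTS14, ADAMTS7 and ADAM33 followed with p from 0.25 to 0.54; the value of ADAM33 (0.21) turned to -0.05 without Berkshire fat or without Korean native fat. MMP27, at -1.75 ± 1.45 (edgeR adjusted p = 0.82), passed without Berkshire fat or without Korean native fat (-6.29 in both fits), fits in which its muscle libraries are the only pair of a tissue with counts.

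**Figure D4:**
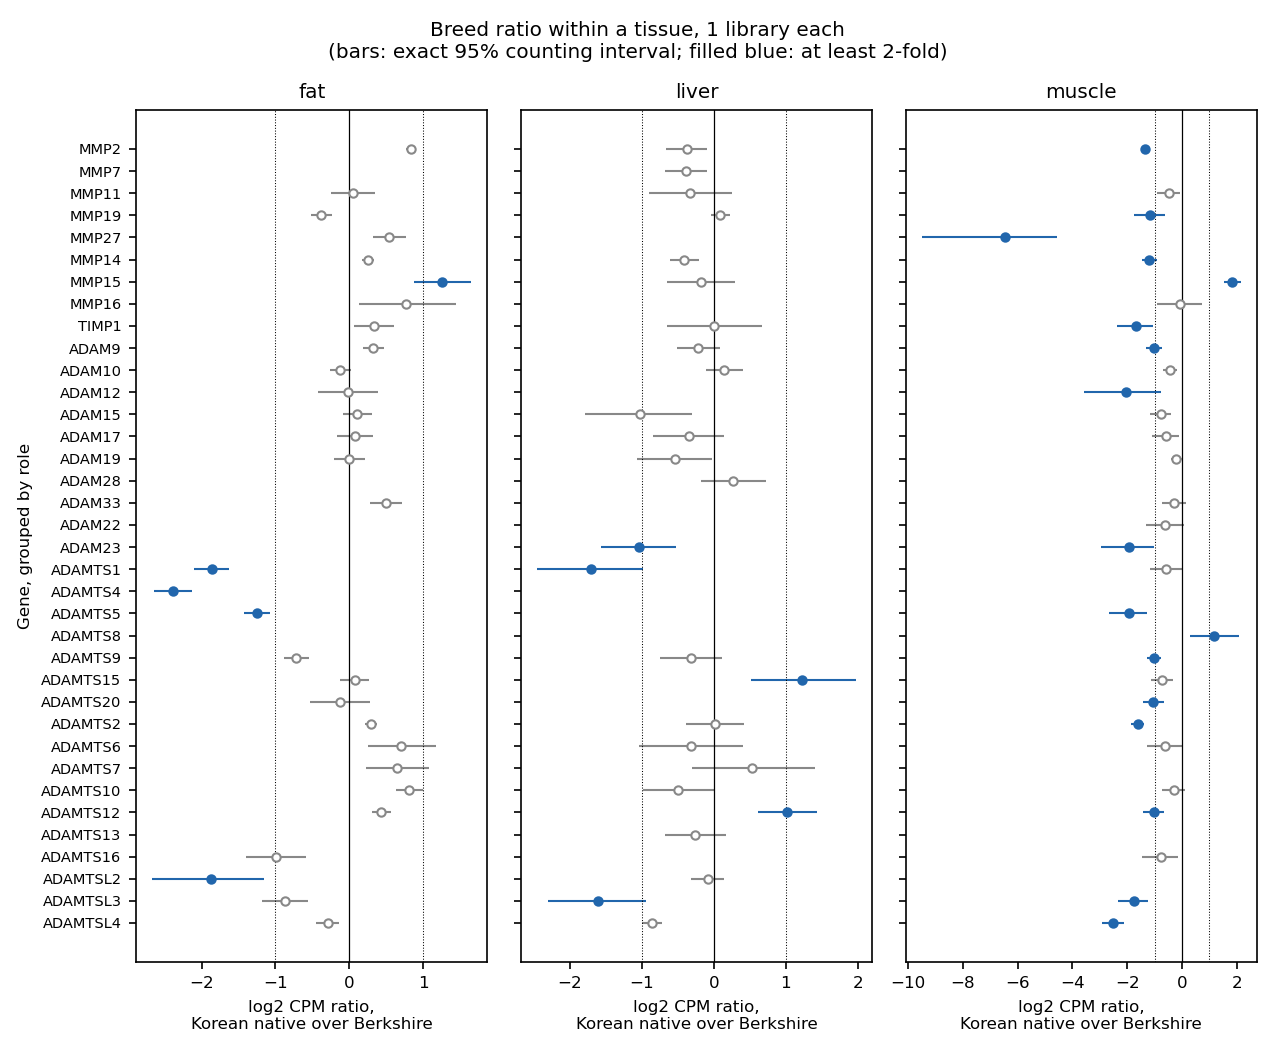
Ratio of Korean native to Berkshire CPM within fat, liver and muscle on a log2 x axis, with separate scales, for members (y axis) that reached 5 CPM in either library; bars are exact 95% counting intervals and filled blue points were at least 2-fold apart after a prior count of 2. In muscle 15 of 30 members were at least 2-fold lower and 2 higher, against 4 and 1 of 30 in fat and 3 and 2 of 26 in liver.

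No test was made inside a tissue, where a breed has a single library, and the intervals below cover counting error only. A member was counted when 1 of the 2 libraries had at least 5 CPM and the ratio, after a prior count of 2, was at least 2-fold. Some members reached that level through their higher library alone, such as MMP27 in muscle, ADAMTS1 in liver and ADAMTSL2 in fat. These counts therefore describe the members that reached it and not the whole family. The shares of all genes follow the same rule. Muscle showed the most such members: 17 of 30, or 56.7%, of which 15 were lower and 2 higher in Korean native muscle. Over all genes of that level 20.9% were at least 2-fold apart, 10.2% lower and 10.7% higher. In all, 28 of the 30 members had a lower value in Korean native muscle, against 47.8% of all genes, and the median log2 ratio was -0.89 against 0.05. In fat 5 of 30 (16.7%) were at least 2-fold apart, 4 lower and 1 higher, against 8.38% of all genes, 3.71% lower and 4.68% higher. In liver 5 of 26 (19.2%) were, 3 lower and 2 higher, against 12% of all genes, 5.82% lower and 6.18% higher.

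MMP27 had the largest ratio, with 221 counts in Berkshire and 2 in Korean native muscle, an 87.7-fold lower level (95% counting interval 24.0 to 729). In fat the Korean native library was the higher one, by 1.46-fold (1.25 to 1.70) with 279 and 404 counts. The difference in muscle was thus not seen in fat. ADAMTSL4 was 5.69-fold lower in Korean native muscle (4.32 to 7.63), with 76.1 and 13.4 CPM, and these 2 were the members at least 4-fold apart after the prior count of 2.

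The other 13 lower members came from most groups of the family. ADAM12 was 4.10-fold lower with 31 and 6 counts (1.69 to 12; under 4-fold after the prior count), ADAMTS5 3.86-fold (2.42 to 6.42), ADAM23 3.84-fold (2.04 to 7.85), ADAMTSL3 3.41-fold (2.37 to 5.02) and TIMP1 3.23-fold (2.11 to 5.12). ADAMTS2 was 3.07-fold lower (2.62 to 3.62), MMP2 2.57-fold (2.38 to 2.77), MMP14 2.28-fold (1.88 to 2.78) and MMP19 2.25-fold (1.53 to 3.37). ADAMTS20, ADAMTS9, ADAMTS12 and ADAM9 were between 2.03-fold and 2.06-fold lower, just inside the limit. So the inhibitor TIMP1, the gelatinase MMP2 and its activator MMP14 were all lower in the same library. Higher were MMP15, by 3.57-fold (2.87 to 4.46) with 20.7 and 73.8 CPM, and ADAMTS8, by 2.24-fold (1.22 to 4.24) with 3.29 and 7.38 CPM.

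Marker lists moved with this difference in muscle. The fibroblast sum was 17475 CPM in Berkshire and 4133 CPM in Korean native muscle, mostly through COL3A1 (14585 and 2773 CPM), while DCN stood at 1954 and 978, LUM at 579 and 245, PI16 at 327 and 111 and PDGFRA at 30.4 and 26.8 CPM. The macrophage markers (5 of 8 with an ID) summed to 122 and 43.6 CPM, the adipocyte markers (3 of 6) to 241 and 51.7 CPM, the tendon, fascia and cartilage markers (11 of 12) to 740 and 464 CPM, the smooth muscle and pericyte markers to 835 and 370 CPM, and the endothelial markers (3 of 6) to 445 and 398 CPM. The skeletal muscle markers (6 of 7) went the other way, with 92663 and 149517 CPM. ADAMTS substrates were at least 2-fold lower in 9 of 16 cases and higher in 0, against 10.2% and 10.7% of all genes. The part of these cells in the members' values was not tested.

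In fat, the lower members were ADAMTS4, by 5.21-fold (4.36 to 6.28), ADAMTSL2, by 3.67-fold (2.22 to 6.36), ADAMTS1, by 3.63-fold (3.08 to 4.31), and ADAMTS5, by 2.38-fold (2.11 to 2.69). Of these, 3 are hyalectanases, of 6 in that group with at least 5 CPM in either fat library. The others at that level were ADAMTS9, ADAMTS15 and ADAMTS20. Their log2 ratios were -0.71, 0.08 and -0.12 after the prior count of 2. ADAMTS16, at 1.99-fold, lay just outside the limit. MMP15 was 2.40-fold higher (1.84 to 3.15), as in muscle. MMP2 and ADAMTS2, lower in Korean native muscle, stood in fat at 412 and 733 CPM and at 241 and 296 CPM. Beside these values, the tendon, fascia and cartilage markers summed to 675 CPM in Berkshire and 157 CPM in Korean native fat, with KERA (keratocan) at 44.1 and 0.296 CPM and TNMD (tenomodulin) at 17.9 CPM and 0 counts. Of 8 such markers with at least 5 CPM, 6 were at least 2-fold lower in Korean native fat and 1, THBS4, was higher (7.35 and 22.5 CPM). The fibroblast sum was 11071 and 16026 CPM, the macrophage sum 168 and 317 CPM and the adipocyte sum 2989 and 1532 CPM. Their part in the members' values was not tested.

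In liver, ADAMTS1 was 3.25-fold lower (1.99 to 5.50), ADAMTSL3 3.04-fold (1.92 to 4.94) and ADAM23 2.06-fold (1.44 to 2.97) in the Korean native library. ADAMTS15 was 2.34-fold higher (1.44 to 3.95) and ADAMTS12 2.02-fold higher (1.53 to 2.70). Of the 8 members highest in liver in both breeds, MMP7 stood at 41.2 and 31.7, MMP19 at 165 and 176, ADAMTS13 at 18.8 and 15.7, ADAM28 at 14.2 and 17.1, ADAMTSL2 at 58.6 and 55.2 CPM, MMP25 at 2.40 and 2.49, ADAMTSL4 at 205 and 113 and ADAM23 at 17.4 and 8.45 CPM. The fibroblast sum was 921 and 785 CPM and the macrophage sum 646 and 444 CPM.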

How the data were processed

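Messenger RNA was measured in 6 libraries, 1 per breed and tissue. The authors deposited raw read counts for each Ensembl gene, made with TopHat and HTSeq 0.5.3p3 on the Sscrofa10.2 build, per the submitters' processing notes. Annotation release, counting mode and strand setting: not given in the sources used here. Overlapping genes and antisense partners may therefore share reads. The 5 closing entries that name no gene were left out. Reads outside genes made up 45.9% to 52.5% and reads without a unique alignment 14.1% to 20.8% of the entries of a library. Symbols matched 11804 of 25322 IDs (46.6%).

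edgeR 4.0.16 in R 4.3.3 fitted tissue and breed to all genes kept by filterByExpr (13810), with TMM factors and a two-sided quasi-likelihood test. The fit left 2 residual degrees of freedom per gene. The test also drew on the spread of the other genes, so its p-values do not rest on those 2 alone. P-values were adjusted by Benjamini-Hochberg over all tested genes and held under 0.05. The biological coefficient of variation was 29.5%. Each SE is the log2 difference divided by the root of its F statistic. Exact 95% intervals of a ratio come from the binomial distribution of the counts of the 2 libraries and cover counting error only. DESeq2 1.42.0 and limma-voom (limma 3.58.1) were alternatives, as were other scalings, no filter, a model without the other term and leaving out each library.

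Values in every library are given for members called between tissues, for ADAMTS4 and MMP27, for the 5 of smallest p in each breed direction and for members at least 2-fold apart within a tissue; some are given only by ratio or range. Of the lists, called genes of highest mean level are named, and FURIN, PCOLCE2, PLAU, PLAT, RECK, VCAN, ACAN, CDH2, NOTCH3 and HBEGF were added after their values were seen. Members, gene lists and tests were chosen with earlier results of these data known. RefSeq names of 51 of 54 members were matched for neighbours on Sscrofa11.1.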

Additional observations from a re-analysis of the deposited data

Results flagged for a closer look

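ADAMTS12 was at least 2-fold apart between the breeds in opposite directions in 2 tissues. The log2 ratio of Korean native to Berkshire, after a prior count of 2, was 1.00 in liver (72 counts in the Berkshire and 176 in the Korean native library) and -1.01 in muscle (205 and 80 counts). The difference between the tissues was not tested, since each breed and tissue has 1 library.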

How the results depend on the processing

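Tissues were compared within breed through the breed term, and beyond that no paired analysis was possible because the labels carry no replicate numbers. Members called in liver against fat (25) and in liver against muscle (21) stayed within 1.5 times under all alternatives run, at 18 to 32 and 16 to 21 when leaving out 1 library. In muscle against fat (7) the count was 24 with total counts, 15 without a filter, 11 with DESeq2 and 5 to 15 when leaving out 1 library. For the breed coefficient (0) it was 1 without a filter and 2 with DESeq2. Except for total counts in muscle against fat, the shares of all genes called in these alternatives are not given here. The counts thus describe how steady the calls were and nothing particular to the members. Of the named values, 15 of 25, 2 of 7 and 12 of 21 kept their side of the threshold in every alternative run for liver against fat, muscle against fat and liver against muscle, and 0 changed direction. In the breed comparison ADAM33 (0.21) turned to -0.0487 without Berkshire fat and -0.0535 without Korean native fat, and leaving out 1 library gave -0.0535 to 0.5810. Members at least 2-fold apart between breeds numbered 8 with total counts, 10 at a minimum of 1 CPM and 1 at 4-fold in fat (5), 9 at a minimum of 1 CPM and 0 at 4-fold in liver (5), and 2 at 4-fold in muscle (17). The number highest in the same tissue in both breeds (34 of 40) was 35 with total counts and 37 of 50 without a filter. Depth limits the low members: ratios that rest on under 10 counts have wide intervals, as for ADAMTS4 in liver (5.43-fold lower, 1.12 to 51.7).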
